A study of Mus musculus with 6 samples.

Results

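The interferon-stimulated and antigen presentation genes are a set of 55 mouse genes that cells switch on after an interferon signal or use to display peptides on class I major histocompatibility complex molecules. They were chosen by symbol, and 54 of the 55 were found among the 12830 genes of a table of RNA sequencing of primary bone marrow stromal cells (BMSCs). Ddx58 was not found under that symbol. The gene identifier of Ddx58 is listed as Rigi, so its values are given separately and it is not counted as a member. All 54 passed the filter on low counts.

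The cells were primary BMSCs from 8-week-old mice, sampled at 2 days under osteogenic induction, which all libraries share. The FF group (3 libraries) came from Rras2f/f mice, in which both copies of Rras2 are floxed. The cKO group (3 libraries) came from Prx1;Rras2f/f mice, which carry the same floxed gene together with a Prx1 driver. The Prx1 promoter is active in limb mesenchyme. A deletion driven this way leaves hematopoietic cells of the culture outside its reach. The FF genotype names no driver, so the deletion and the driver itself cannot be told apart. The labels do not say whether the libraries came from separate mice, so p-values measure the spread between these libraries, which may be technical. Libraries are written FF 1 to FF 3 and cKO 1 to cKO 3 after their replicate numbers.

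Interferons bind receptors at the cell surface, and kinases there activate Stat proteins, which enter the nucleus with Irf9 and bind interferon-stimulated response elements in promoters. The genes switched on include sensors of foreign RNA and DNA, effectors that block viral replication, enzymes of ISG15 conjugation, GTPases that act on pathogen-containing vacuoles, and the proteasome subunits and transporters that feed class I molecules. Marrow stromal cells and macrophages both carry interferon receptors.

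The 6 libraries held between 31934714 and 37561452 counts over the listed genes. Rras2, the targeted gene, stood at 44.7 to 50.1 CPM in FF and 26.7 to 29.0 CPM in cKO, with no overlap. CPM stands for counts put on a shared scale of depth by TMM, which corrects for library composition. Markers of bone marrow stroma (10 of 10 in the table) summed to 21661 to 22837 CPM in FF and 17453 to 19326 CPM in cKO. Markers of macrophages (10 of 10 in the table) summed to 21372 to 22775 CPM in FF and 23346 to 24035 CPM in cKO, so the cultures held both. In such bulk samples, fewer cells of a type and less RNA per cell cannot be told apart.

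One library stood apart from the other 5 over the interferon genes, and it was FF 1. The departure of a library is defined here as its log2(CPM + 0.1) minus the median of the other 5 libraries, so a departure of 1 is 2-fold on that scale. Since 1 library stands on one side, a departure carries no test. In FF 1 the median departure of the 54 members was 1.44, with a range from -0.02 for Ifnar1 to 3.73 for Ifit3. In that library 37 members were at least 2-fold higher than the median of the others, or 68.5% of members, against 1.2% of all genes. FF 1 was the highest of the 6 libraries in 51 of 54 members, against 17.5% of all genes. The 3 exceptions were B2m and Ifnar2, highest in cKO 3, and Ifnar1, highest in FF 3.

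**Figure D1:**
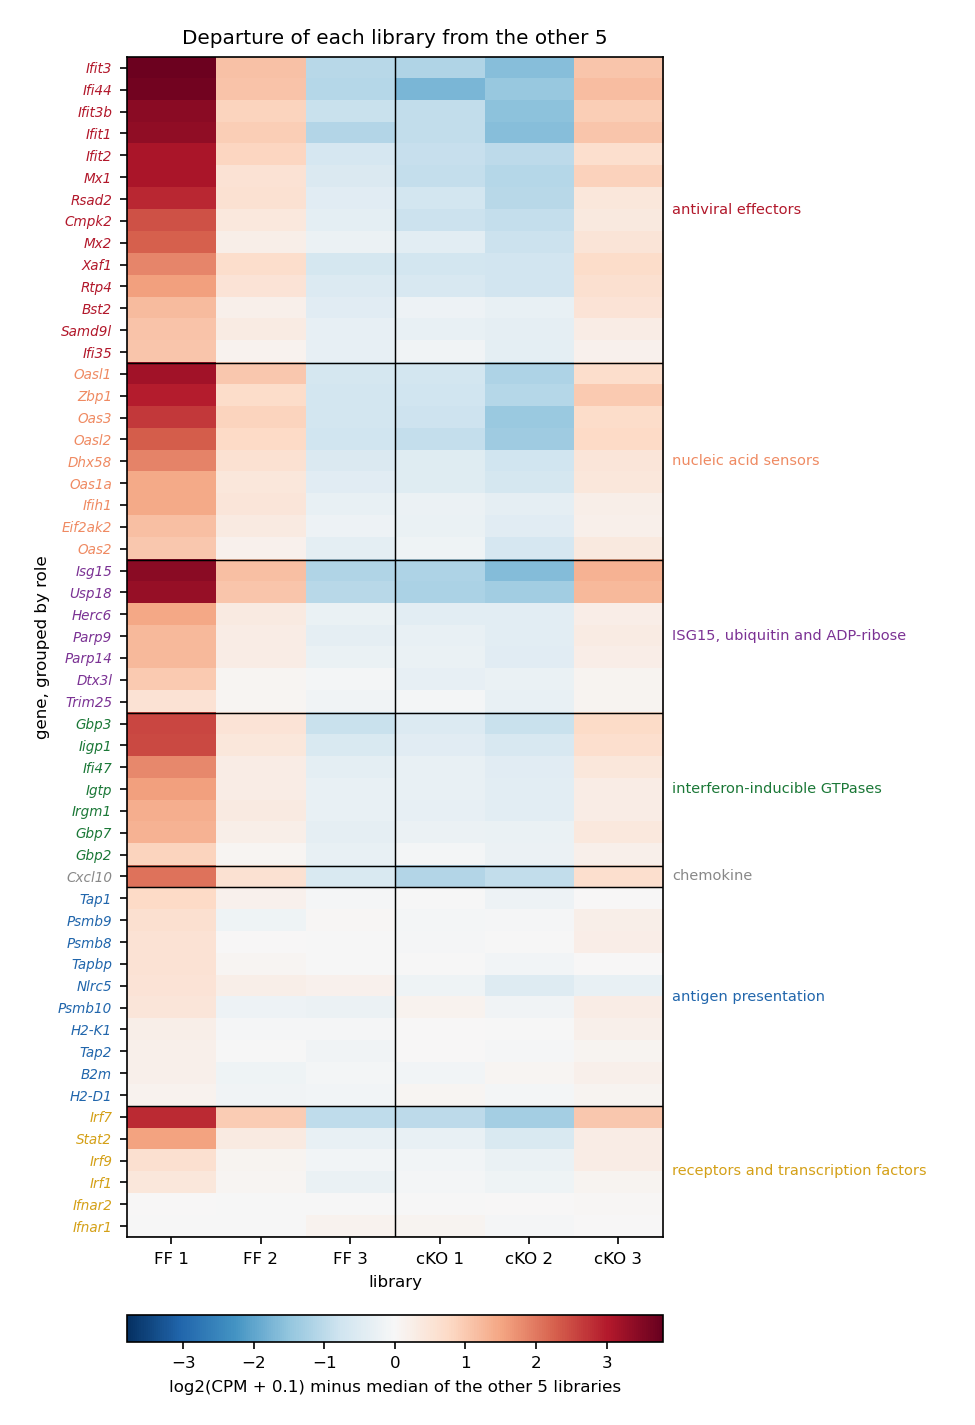
Departure of each library (columns) from the median of the other 5 on the log2(CPM + 0.1) scale, for 54 genes (lines of cells) grouped by role and sorted by the departure of FF 1. The FF 1 column is red for the antiviral effectors and sensors and pale for class I molecules and interferon receptors, and the columns of FF 2 and cKO 3 are lightly red where those of FF 3, cKO 1 and cKO 2 are blue.

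The other 5 libraries also fell into an order, and the order crossed the genotypes. The median departure was 0.33 in FF 2 and 0.33 in cKO 3, and it was -0.32 in FF 3, -0.28 in cKO 1 and -0.44 in cKO 2. At least 2-fold higher values occurred for 5 members in FF 2 (background 0.436% of all genes) and 6 in cKO 3 (0.507%). At least 2-fold lower values occurred for 5 members in FF 3 (0.694%), 5 in cKO 1 (0.553%) and 13 in cKO 2 (0.974%). By the definition of the departure, the 2 middle libraries of each gene have departures of equal size and opposite sign. The lower values are thus partly a mirror of the higher ones and not a separate result. One FF library and 1 cKO library thus lay above the middle of the set, and 1 FF library and 2 cKO libraries lay below it. FF 1 was highest and FF 2 and cKO 3 came next in 45 of 54 members, or 83.3%, against 2.38% of all genes. cKO 2 was the lowest library in 37 members, against 17.2% of all genes.

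Promoter sequences are shown for genes at both ends of this range: 4 members with departures above 3 in FF 1, Irf7, and a pair of class I genes that departed little. Each is the 200 bases upstream of the RefSeq start site (RefSeq, GRCm38.p6, the build of the mm10 files), 5′ to 3′ on the strand of the gene. Capitals mark matches to the core of the interferon-stimulated response element, searched on both strands as GAAA, 2 bases of any kind and GAAA again. On the other strand the match reads TTTC, 2 bases and TTTC.
Ifit1 (chr19:34640689-34640888, plus strand): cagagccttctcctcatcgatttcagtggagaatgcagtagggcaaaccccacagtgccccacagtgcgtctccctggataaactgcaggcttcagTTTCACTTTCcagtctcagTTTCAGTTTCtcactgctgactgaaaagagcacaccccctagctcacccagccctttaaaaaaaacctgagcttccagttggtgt
Ifit3 (chr19:34583329-34583528, plus strand): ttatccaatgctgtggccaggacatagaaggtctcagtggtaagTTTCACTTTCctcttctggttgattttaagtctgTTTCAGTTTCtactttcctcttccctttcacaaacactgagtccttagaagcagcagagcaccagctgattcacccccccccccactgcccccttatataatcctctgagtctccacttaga
Ifit3b (chr19:34607757-34607956, plus strand): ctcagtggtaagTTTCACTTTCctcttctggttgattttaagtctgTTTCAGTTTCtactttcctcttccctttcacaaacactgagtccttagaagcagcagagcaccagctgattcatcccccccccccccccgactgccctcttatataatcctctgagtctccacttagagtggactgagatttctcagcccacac
Isg15 (chr4:156200819-156201018, minus strand): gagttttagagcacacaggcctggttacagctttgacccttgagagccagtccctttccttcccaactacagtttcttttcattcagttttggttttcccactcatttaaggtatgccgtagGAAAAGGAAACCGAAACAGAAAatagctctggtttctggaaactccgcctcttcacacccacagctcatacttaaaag
Irf7 (chr7:141266425-141266624, minus strand): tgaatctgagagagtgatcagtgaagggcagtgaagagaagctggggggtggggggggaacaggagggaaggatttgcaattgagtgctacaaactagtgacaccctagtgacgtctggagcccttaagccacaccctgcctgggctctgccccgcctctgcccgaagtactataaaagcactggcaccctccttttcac
B2m (chr2:122147487-122147686, plus strand): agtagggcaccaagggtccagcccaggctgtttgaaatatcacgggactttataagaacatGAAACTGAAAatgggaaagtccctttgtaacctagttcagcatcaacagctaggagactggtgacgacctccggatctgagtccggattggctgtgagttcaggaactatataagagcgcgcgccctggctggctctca
H2-K1 (chr17:34000348-34000547, minus strand): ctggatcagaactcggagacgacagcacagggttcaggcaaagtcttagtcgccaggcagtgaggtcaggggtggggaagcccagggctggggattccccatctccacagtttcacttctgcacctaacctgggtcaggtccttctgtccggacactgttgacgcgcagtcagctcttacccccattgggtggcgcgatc

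The Ifit1, Ifit3 and Ifit3b segments each held 2 matches, the Isg15 segment held 3 that overlap one another, and the B2m segment held 1. The segments of Irf7 and H2-K1 held 0, which says only that these letters are not in the window. Ifit3 and Ifit3b shared an identical run of 119 of their 200 bases. Windows from 250 bases before to 50 after the start were given for 42 of the 54 members. In these, 18 members (42.9%) held the match. It was in 3.99% of 27025 genes and in 3.91% of the 9828 genes of the table with a window. The list was made of interferon-stimulated genes, so its higher share may follow from that choice and is no result of these libraries. The match was present in 5 of 11 antiviral effectors, 4 of 6 sensors, 5 of 6 GTPases and 1 of 8 antigen presentation genes, which was B2m. It was also in 1 of 4 genes of the ISG15 group, in 1 of 6 receptors and transcription factors and in Cxcl10. Members with a match had a median departure in FF 1 of 1.54 (range 0.19 to 3.73), and those without had 0.87 (range -0.02 to 3.68). The ranges overlap over almost their whole length, and Ifi44 was at the top of those without. The letters TTCNNNGAA, a palindrome that is the core of the gamma-activated site, were in 11 of the 42 members (26.2%). They were in 9.55% of the 27025 genes and in 8.11% of the 9828 genes of the table. Members with these letters had a median departure in FF 1 of 1.15 (range -0.02 to 3.12). Those without had 1.52 (range 0.14 to 3.73).

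The receptors and transcription factors set the signal up, and they divided by kind. Ifnar1 and Ifnar2 are the chains of the type I interferon receptor. Ifnar1 stood at 173, 175 and 190.4 CPM in FF 1, FF 2 and FF 3 and at 188, 169 and 175 CPM in cKO 1, cKO 2 and cKO 3. Ifnar2 ranged from 118 to 123 CPM over all 6 libraries, and no library stood apart in either receptor. Irf7, the factor that amplifies type I interferon production, stood at 173, 46.5 and 24 CPM in FF and at 23.3, 19 and 48.8 CPM in cKO. Its FF 1 value was 2.84 above the median of the others on the log2 scale, and FF 2 and cKO 3 formed a second level. Stat2, a subunit of the complex that binds the response element, stood at 224, 99.9 and 77.6 CPM in FF and at 78.4, 63.6 and 95.0 CPM in cKO. Irf9, its DNA-binding partner, stood at 90.1, 63.2 and 58.3 CPM in FF and at 58.8, 52.9 and 71.0 CPM in cKO. FF 1 was thus highest for the factors, with departures from the median of the others of 1.52 for Stat2 and 0.62 for Irf9. Irf1, the factor that acts on interferon gamma targets, had a departure of 0.43. Irf7 and Stat2 were the 2 of these 6 genes at or past 2-fold in FF 1.

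All 9 sensors of foreign nucleic acid were at least 2-fold higher in FF 1, with a median departure of 1.87, which is 3.66-fold. Oasl1, an Oas-like protein that restrains Irf7 translation, had the largest departure, 3.18. It stood at 20.9 CPM in FF 1, 4.57 in FF 2 and 2.21 in FF 3, and at 2.19, 1.56 and 3.61 CPM in the cKO libraries. Zbp1, which senses Z-form nucleic acid and starts necroptosis, stood at 58.0, 11.6 and 7.17 CPM in FF and at 6.84, 5.42 and 14.4 CPM in cKO. Both genes were highest in FF 1 by a wide margin and next highest in FF 2 and cKO 3. Oas3, which makes the 2-5A signal that activates RNase L, stood at 197, 55.4 and 30.7 CPM in FF and at 29.1, 18.7 and 50.2 CPM in cKO. The cytosolic RNA helicases departed less, with 1.43 for Ifih1 (MDA5) and 1.87 for Dhx58 (LGP2). Oas1a and Oasl2, of the same family as Oas3, had 1.44 and 2.29. Eif2ak2 (PKR), the kinase that halts translation, had 1.15, and Oas2 had the smallest departure of the sensors, 1.03. Rigi, counted apart, stood at 188, 85.0 and 63.0 CPM in FF and at 66.6, 59.8 and 83.2 CPM in cKO, a departure of 1.49 in FF 1.

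The antiviral effectors departed furthest as a group. All 14 were at least 2-fold higher in FF 1, with a median departure of 2.63 or 6.20-fold, from 1.04 for Ifi35 to 3.73 for Ifit3. The Ifit proteins bind foreign RNA and block its translation, and their genes neighbour each other on chromosome 19. Ifit3 stood at 238 CPM in FF 1, at 38.8 in FF 2 and 17.8 in FF 3, against 16.7, 12.2 and 37.4 in cKO 1 to cKO 3. Its FF 1 value was 13.4-fold above the median of the other libraries, although FF 3 lay within the range of cKO. Ifit1 stood at 147, 27.5 and 12.6 CPM in FF and at 14.3, 8.82 and 29.9 CPM in cKO. Ifit3b, a near copy of Ifit3 whose reads the authors' counting could share with it, stood at 67.2, 11.1 and 6.20 CPM in FF and at 5.76, 3.69 and 12 CPM in cKO. Ifit2 departed by 3.12, and all 4 of these Ifit genes carried the same order, with FF 1 first and FF 2 and cKO 3 next. Ifi44, an interferon-induced antiviral protein, stood at 65.1, 10.7 and 4.99 CPM in FF and at 3.16, 3.92 and 11.3 CPM in cKO, a departure of 3.68. Mx1 and Mx2, of a family of GTPases that trap viral nucleocapsids, had departures of 3.11 and 2.26. The annotation lists Mx2 as a polymorphic pseudogene. Rsad2 (viperin) and Cmpk2, which act together to make a chain-terminating nucleotide, had 2.85 and 2.41. Rtp4, a chaperone of receptor transport, and Xaf1, a factor that promotes cell death, had 1.55 and 1.86. At the lower end stood Bst2 (tetherin), which holds budding virions on the cell, with 1.21, Samd9l with 1.09 and Ifi35 with 1.04.

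In the ISG15 group, Isg15 and Usp18 departed far more than the other 5 genes. Isg15, the ubiquitin-like protein that is attached to other proteins, stood at 84.1, 17.3 and 7.73 CPM in FF and at 7.55, 5.39 and 19.3 CPM in cKO. Its departure in FF 1 was 3.43, and it was also the member with the largest departure in FF 2, in FF 3, in cKO 2 and in cKO 3. Its departures in FF 2 and FF 3, 1.15 and -1.15, are equal in size by the definition. Usp18, which removes ISG15 and dampens receptor signalling, stood at 55.5, 11.6 and 5.55 CPM in FF and at 4.93, 4.61 and 13.3 CPM in cKO. Both lay more than 3 log2 units above the median of the other libraries in FF 1. The other enzymes lay between 0.54 for Trim25, the ligase that activates RIG-I, and 1.48 for Herc6, the mouse ligase for ISG15. Herc6 stood at 80.2, 36.7 and 28.8 CPM in FF and at 26.4, 26.4 and 34.6 CPM in cKO. Parp9 and Dtx3l, which form a complex that modifies histones and ubiquitin, had 1.23 and 0.99. Parp14, an ADP-ribosyl transferase, had 1.22, and 5 of the 7 genes were at or past 2-fold.

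Among the interferon-inducible GTPases, which attack the membranes of vacuoles that hold pathogens, 6 of 7 were at least 2-fold higher in FF 1. Gbp3 stood at 60.4, 15.0 and 8.26 CPM in FF and at 10.4, 8.30 and 17.1 CPM in cKO, a departure of 2.53. Iigp1, an immunity-related GTPase, stood at 79.3, 18.5 and 12.3 CPM in FF and at 13.7, 12 and 21.2 CPM in cKO, a departure of 2.52. Ifi47 stood at 117, 40.0 and 31.2 CPM in FF and at 33, 29.6 and 44.1 CPM in cKO. FF 1 was the highest library for all 7 genes of the group, and the lowest of the departures was 0.84, for Gbp2. Igtp, Irgm1 and Gbp7 had 1.56, 1.38 and 1.33. Cxcl10, the chemokine that draws activated T cells, was near the lower end of abundance, with 10.4, 3.67 and 2.43 CPM in FF and 1.65, 1.87 and 3.86 CPM in cKO.

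Antigen presentation genes departed little, and 0 of 10 reached 2-fold in FF 1, although FF 1 was the highest library in 9. Their median departure was 0.49, or 1.40-fold. Tap1, a subunit of the transporter that carries peptides into the endoplasmic reticulum, stood at 113, 74.1 and 65.3 CPM in FF and at 66.7, 58.9 and 67.0 CPM in cKO, which gave the largest departure of the group, 0.76. Psmb9, an immunoproteasome subunit, stood at 41.5, 25 and 28.3 CPM in FF and at 26.6, 27.3 and 32.1 CPM in cKO. Psmb8, its neighbour on chromosome 17 and another such subunit, stood at 106, 73.1 and 72.6 CPM in FF and at 70.8, 72.5 and 86.5 CPM in cKO. FF 1 was above every other library for these 3 genes, but by less than for any sensor or antiviral effector. Tap2, the other transporter subunit, departed by 0.20 and Tapbp (tapasin), which joins the transporter to class I molecules, by 0.54. Psmb10, the third immunoproteasome subunit, departed by 0.45 and Nlrc5 by 0.52. The class I molecules and B2m were the most abundant of the members per length, and their departures were 0.24 for H2-K1, 0.14 for H2-D1 and 0.19 for B2m. H2-K1 stood at 1426, 1204 and 1194 CPM in FF and at 1236, 1211 and 1392 CPM in cKO. H2-D1 stood at 2623, 2310.3 and 2365 CPM in FF and at 2518, 2384 and 2582 CPM in cKO. B2m, their light chain, stood at 2490.3, 2075 and 2179 CPM in FF and at 2138, 2304 and 2506 CPM in cKO. For these 3 genes FF 1 and cKO 3 lay close together, and the groups overlapped. H2-K1 and H2-D1 are near copies whose reads could be shared.

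**Figure D2:**
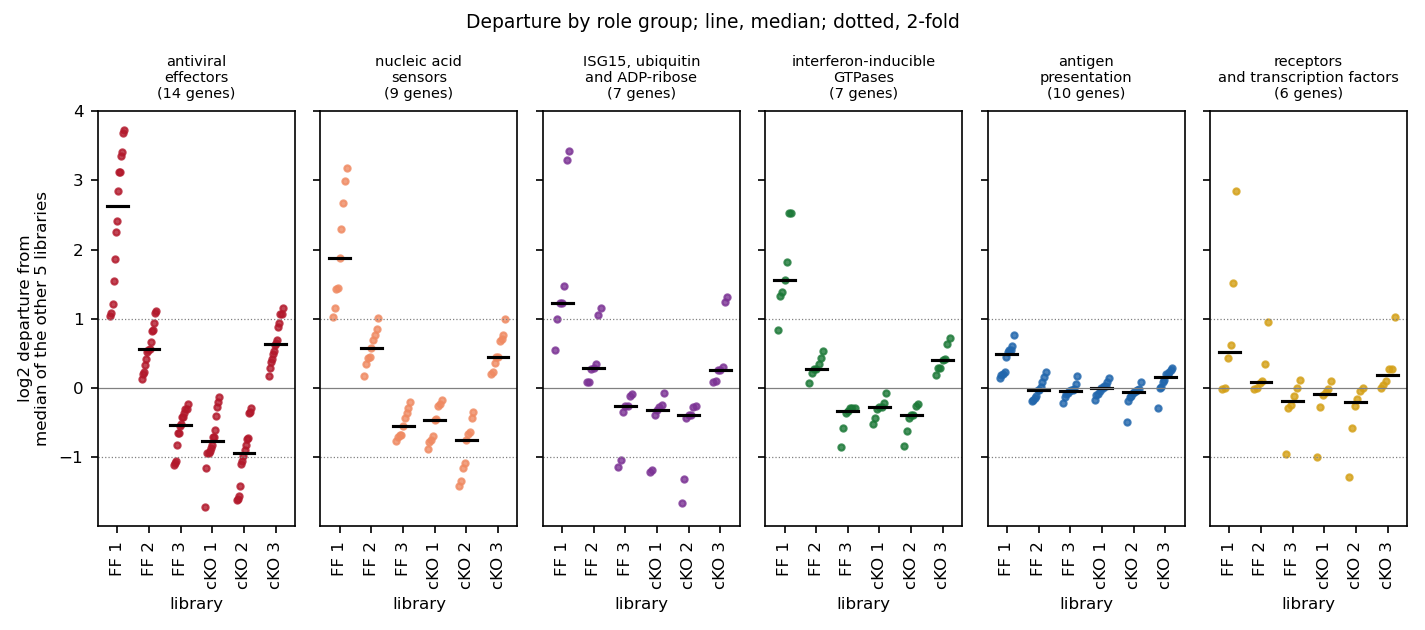
Departure (log2, vertical axis) of each of the 6 libraries (horizontal axis) for the genes of 6 role groups, 1 point a gene, with the group median as a line and 2-fold as dotted lines. In FF 1 the medians run from 2.63 for antiviral effectors through 1.87 for sensors to 0.49 for antigen presentation genes; Cxcl10, the single chemokine, is not drawn.

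Summed over its genes, the antiviral group took 1662 CPM in FF 1 and between 330.4 and 560 CPM in the other libraries. The antigen presentation group took 7389 CPM in FF 1 and between 6209 and 7093 CPM in the others. Levels between genes can be compared only per length, as FPKM. On that scale the median of the 5 other libraries was 2339 for B2m, 1088 for H2-D1 and 721 for H2-K1, and 9.43 for Ifit3, 1.58 for Ifi44 and 0.934 for Oasl1. Over the 54 members, the departure in FF 1 was lower for genes of higher level (Pearson r = -0.70, Spearman rho = -0.78, against log2 FPKM). It was higher for genes that varied more among the other 5 libraries (r = 0.96, rho = 0.95). Both are descriptions over 54 genes of the same 6 libraries, with no p, and the points share their libraries and depth. The departure subtracts the median of the other 5 libraries, so a negative correlation with the level in those libraries is partly built in.

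**Figure D3:**
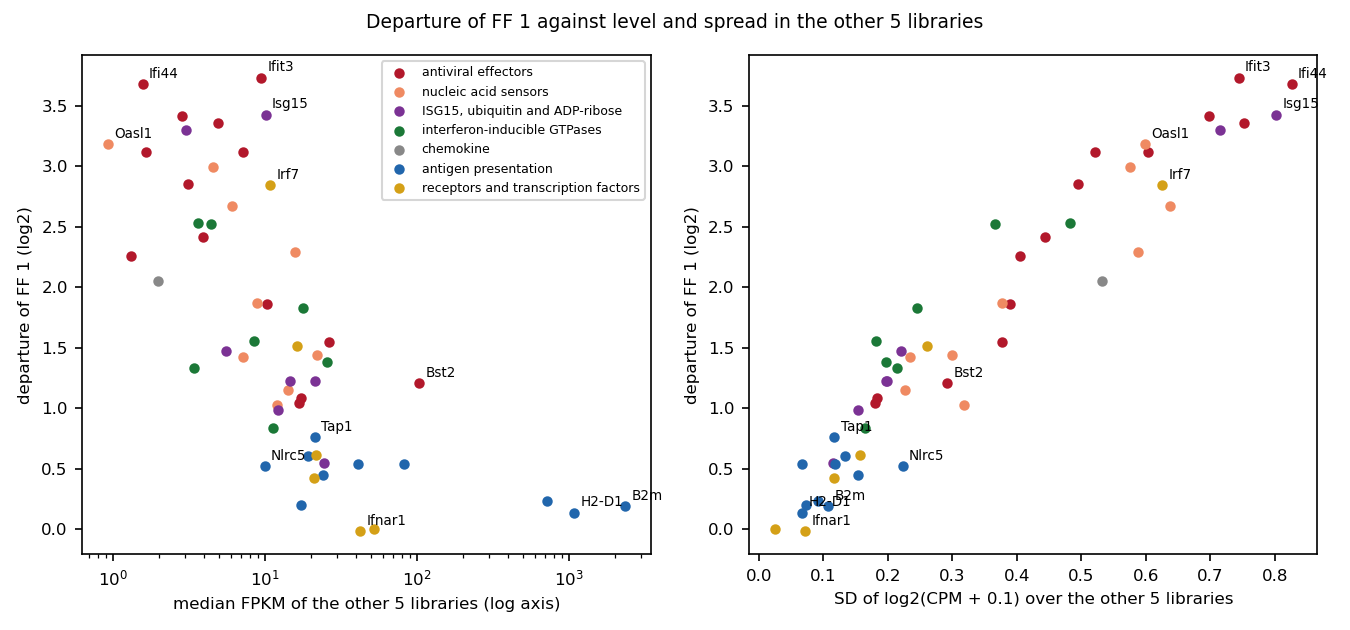
Departure of FF 1 (log2, vertical axes) against the median FPKM of the other 5 libraries (left, log axis) and against the SD of log2(CPM + 0.1) over those 5 libraries (right), 1 point a gene, coloured by role. Class I genes sit at high level and small departure, Oasl1 and Ifi44 at low level and large departure, and on the right the points climb along a line from Ifnar1 to Ifit3.

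The comparison of the genotypes asked how these genes differed between cKO and FF, and most of the difference in level was absent without FF 1. With edgeR's quasi-likelihood test, 0 of 54 members were called at an adjusted p below 0.05, against 4.84% of all genes (621 of 12830). At an unadjusted p below 0.05 it was 1 member (17.3% of all genes). DESeq2 called 1 member (6.61% of all genes) and limma-voom 0 (3.38%). The log2 fold change of cKO over FF was negative in 49 members and positive in 5, where 49.8% of all genes were negative, with a median of -0.68, and the median of all genes was 0.00058. Without FF 1, it was negative in 37 and positive in 17, with a median of -0.12 and 0 called (background 2.89%). For Ifit3 the FF mean was 98.2 ± 122 CPM and the cKO mean 22.1 ± 13.4 CPM (SD over 3 libraries each), and the edgeR log2 fold change was -2.15 ± 1.24 (SE), adjusted p = 0.492. The SD in FF exceeded its mean, as it did for Isg15, whose FF mean was 36.4 ± 41.6 CPM and cKO mean 10.8 ± 7.50 CPM, with an edgeR adjusted p of 0.554.

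By role, the median log2 fold change was -1.64 for antiviral effectors, -0.94 for sensors, -0.57 for the ISG15 group, -0.72 for GTPases and -0.07 for antigen presentation genes. Without FF 1 these medians were -0.18, -0.20, -0.14, 0.02 and 0.09. Most of the fold for the antiviral effectors and sensors was thus tied to 1 library, and the sign of the GTPase and antigen presentation medians changed when it was left out. For receptors and transcription factors the median was -0.17, and -0.02 without FF 1.

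**Figure D4:**
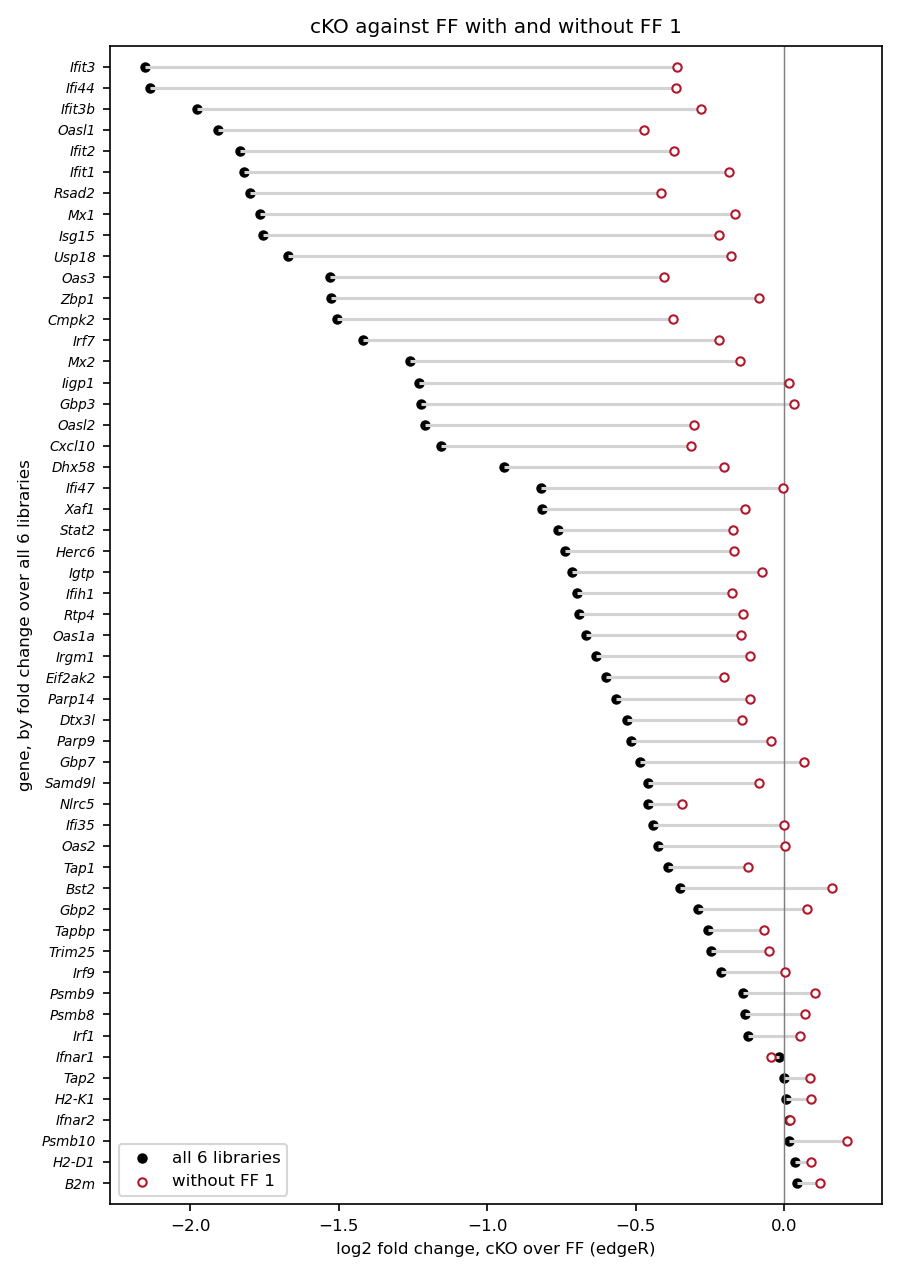
The log2 fold change of cKO over FF (horizontal axis, edgeR) for 54 genes (vertical axis), with all 6 libraries (black) and without FF 1 (open red circles), joined by a line. The black points run down to -2.15 for Ifit3, and the open circles gather near 0, with a median of -0.12.

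Nlrc5, the transactivator of class I genes, was the 1 member whose libraries did not overlap between the groups, where 22.5% of all genes did not overlap. It was chosen after its values were seen. It stood at 118, 96.5 and 92.9 CPM in FF and at 82.3, 65.9 and 75.9 CPM in cKO. Every FF library was thus above every cKO library, and FF 1 was highest. The means were 102.6 ± 13.8 and 74.7 ± 8.28 CPM (SD, n = 3 each), and the log2 fold change was -0.46 ± 0.126 (SE) with an edgeR adjusted p of 0.140. Without FF 1 the log2 fold change was -0.34, with an edgeR adjusted p of 0.0569. DESeq2 gave an adjusted p of 2.42e-05, and over all alternatives the adjusted p of Nlrc5 ran from that value to 0.376. Its direction held in each of them, and 1 member passed an adjusted p of 0.05 in the authors' deposited table, where 6.61% of all genes did. H2-K1, H2-D1 and B2m, among the genes that Nlrc5 acts on, had log2 fold changes of 0.01, 0.04 and 0.04. Their edgeR adjusted p-values were 0.982, 0.808 and 0.834. Tap1 and Psmb9 had log2 fold changes of -0.39 and -0.14, with edgeR adjusted p-values of 0.534 and 0.828. Without FF 1, Tap1 and Psmb9 had -0.12 and 0.11. Of the 10 antigen presentation members, 6 were negative over all libraries. The 20 antigen presentation genes listed beside the members had a median log2 fold change of -0.01.

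**Figure D5:**
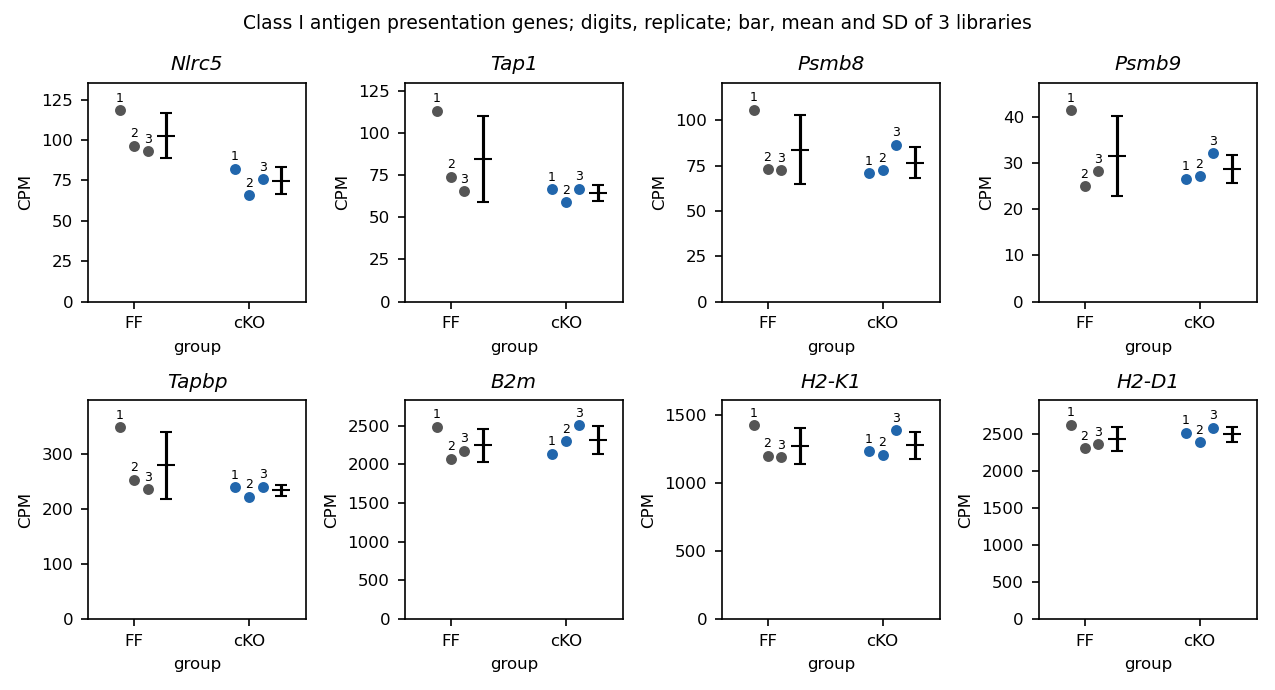
CPM (vertical axes, from 0) in the 3 FF and 3 cKO libraries for Nlrc5 and 7 other antigen presentation genes; digits mark the replicate, and the bar gives the mean and SD of 3 libraries. The Nlrc5 points of the groups do not overlap, and those of the other 7 genes do.

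Other genes of the pathway were taken from lists beside the members. Of 29 symbols listed for other signalling genes, 26 were in the table. Tmem173 and Mb21d1, not found, are older symbols of Sting1 and Cgas, which were. Of the 26, 0 were called by edgeR (4.84% of all genes were). Their median departure in FF 1 was 0.08, with 1 at or past 2-fold (1.2% of all genes were). Of 64 other interferon-induced genes, 60 were in the table and the median departure in FF 1 was 1.06, with 32 at or past 2-fold. Of these, 1 rose and 1 fell in cKO by edgeR, a share below the 4.84% of all genes called. Ifi30, a lysosomal reductase that prepares antigens, stood at 132, 116 and 125 CPM in FF and at 144, 139 and 145 CPM in cKO, and rose by 0.20 ± 0.0507 on the log2 scale (adjusted p = 0.0353). Plac8 stood at 17.2, 13.6 and 14.2 CPM in FF and at 9.41, 11.4 and 11.0 CPM in cKO, and fell by 0.50 ± 0.114 on the log2 scale (edgeR adjusted p = 0.0201). The departure of FF 1 was -0.08 for Ifi30 and 0.60 for Plac8, both under 2-fold. All 20 other antigen presentation genes were in the table, 0 were called by edgeR, and the median departure was 0.21. H2-T24, a non-classical class I gene chosen after its values were seen, was the 1 of them at or past 2-fold, with 63.3, 26.8 and 16.8 CPM in FF and 20.1, 14.3 and 28.4 CPM in cKO. None of 11 interferon ligand genes was in the table, so the ligands were not analysed here.

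Genes outside the members with the largest departures in FF 1 were read to see what accompanied them. They were picked by their value in FF 1, so a high FF 1 value in them follows from the choice. Of the 154 genes at least 2-fold higher in FF 1, 37 were members (24%), 34 stood on the other pathway lists (22.1%), 60 had another symbol and 23 had none. Of the 10 non-members with the largest departures, 6 belonged to the Slfn, Ifi200 or Ms4a families. Slfn1 stood at 29.5, 4.33 and 2.12 CPM in FF and at 2.39, 2.07 and 5.37 CPM in cKO. Ifi213 stood at 33.1, 7.71 and 3.37 CPM in FF and at 2.76, 2.88 and 9.42 CPM in cKO. Both carried the order of the members, with FF 2 and cKO 3 next after FF 1. Ifi208 stood at 17.9, 3.96 and 1.81 CPM in FF and at 1.34, 0.979 and 3.11 CPM in cKO. Ifi206 stood at 33.2, 5.91 and 3.77 CPM in FF and at 2.28, 2.10 and 8.56 CPM in cKO. FF 1 was the highest library for both, with departures from the median of the others of 3.24 and 3.10. Ms4a4c stood at 26.9, 7.02 and 4.46 CPM in FF and at 4.67, 3.02 and 6.83 CPM in cKO. Slfn4 stood at 6.97, 2.03 and 1.06 CPM in FF and at 1.20, 1.27 and 1.57 CPM in cKO. Their departures were 2.5 and 2.37, and FF 2 and cKO 3 came next after FF 1 in both.

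Markers of other cell types were read beside the departure of FF 1. The summed macrophage markers in FF 1 were 0.935 times the median of the other libraries, with 0 of 10 at or past 2-fold, and the summed stroma markers were 1.18 times it, with 0 of 10. Neutrophil markers (7 of 8 in the table) stood at 622 CPM in FF 1, 0.966 times the median of the others. None of these lists set FF 1 apart by 2-fold. B and plasma cell markers (4 of 8) summed to 181 to 198 CPM in FF and 295 to 357 CPM in cKO. FF 1 was 0.672 times the median of the others for this list. For T and NK cells 1 of 8 markers was in the table, at 0.441 to 2.11 CPM. Endothelial markers (5 of 6) summed to 29.1 to 44.1 CPM in FF and 27.8 to 35.4 CPM in cKO, and FF 1 was 1.37 times the median of the others. For plasmacytoid dendritic cells, the main makers of type I interferon, 2 of 6 markers were in the table, Irf8 and Bst2, which is a member. Siglech, Ccr9, Ly6d and Klk1 were not listed. The sum of Irf8 and Bst2 in FF 1 was 1.54 times the median of the others. Bst2 departed by 1.21 in FF 1 and Irf8 by -0.04. The part of these cell types in the departure was not tested.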

How the data were processed

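The 3 FF and 3 cKO libraries were prepared with a strand-marking mRNA kit, per the labels' protocols. The submitters' processing notes name mm10 as the build. The aligner, counter and strand setting were not given in the sources used here. Raw gene counts per library were deposited by the authors and were the basis of all tests. The deposited FPKM values were used to compare levels between genes and as an alternative to CPM. The table also held the authors' deposited log2 fold change and p-values, of which only the number of members passing is given. The lowest mean count of a gene was 22.3.

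The test was edgeR 4.0.16, run in R 4.3.3 (TMM, filterByExpr, quasi-likelihood F test with robust estimation, Benjamini-Hochberg adjustment over 12830 genes), with no covariates. Departures used a pseudocount of 0.1 CPM. DESeq2 1.42.0 and limma-voom (limma 3.58.1), other scalings and filters, each library left out and the replicate number as a block were alternatives. Tests were checked on simulated counts. Coordinates came from GENCODE M21 of the same build, which matched 54 of 54 members. Promoter sequences came from RefSeq.

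The members and lists were chosen with earlier results of these data known. Values in full were given for the 3 members with the largest departure in FF 1 of each role group, the 10 non-members of largest departure with a mean of at least 1 CPM, called genes of the other lists, and Rras2. Others given in full, among them Ifit1, Ifnar1, Nlrc5 and the class I genes, were chosen after their values were seen.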

Additional observations from a re-analysis of the deposited data

How the results depend on the processing

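Antiviral effectors, sensors and antigen presentation genes kept this order in FF 1 under every alternative run: the median departure ranged from 2.39 to 2.82 for antiviral effectors, 1.64 to 1.93 for sensors and 0.42 to 0.53 for antigen presentation genes, and 34 to 38 members were at or past 2-fold in FF 1. Antigen presentation genes lay below receptors and transcription factors (0.49 and 0.52), but above them without paralogs (0.53 and 0.52). Cxcl10 lay above the sensors (2.05 and 1.87), but below them with a pseudocount of 1 CPM (1.73 and 1.83). Leaving out libraries for the departures was chosen after seeing the data. The departures of FF 2 and cKO 3 depend on the reference: against the mean of the others they were 0.03 and 0.09, and FF 2 was -0.34 against the other FF libraries alone. Called members numbered 0 under edgeR with every scaling, filter and left-out library and under limma-voom, where 2.09% to 9.09% of all genes were called. They numbered 1, Nlrc5, under DESeq2 and under the replicate block, where 6.61% and 5.21% of all genes were called. Same-numbered libraries showed no sign of pairing (correlations of group-centred values -0.03, 0.08 and -0.10), where other pairs ran from -0.18 to 0.20. With 3 libraries a group, this cannot exclude a pairing. The count of called genes was 621 without the block and 669 with it. It was 399 without robust estimation and 268 to 1166 with 1 library left out. The median log2 fold change of the members ranged from -0.95 to -0.12 with 1 library left out, the last without FF 1. Among the least abundant members, Cxcl10 rested on 58 to 359 counts a library and Oasl1 on 54 to 722.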

Other observations

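Among the 10 non-members with the largest departures in FF 1, 4 did not carry the order of the interferon genes. Guca1a stood at 2.72, 0 and 2.18 CPM in FF and at 0, 0 and 3.14 CPM in cKO. Gm38431 stood at 63.4, 5.81 and 62.1 CPM in FF and at 3.45, 3.11 and 38.0 CPM in cKO. In Guca1a cKO 3 lay above FF 1, and in Gm38431 FF 3 lay near it. Zfp1009 stood at 8.80, 0.660 and 0.312 CPM in FF and at 10.9, 0.778 and 11.1 CPM in cKO. Derpc stood at 9.43, 9.06 and 1.68 CPM in FF and at 2.39, 1.58 and 1.32 CPM in cKO. In each of these at least 1 other library lay close to FF 1 or above it.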
